A study of Mus musculus with 18 samples.

Results

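The Hox genes encode homeodomain transcription factors that give cells of the embryo their position along the head-to-tail axis. On the array, 39 genes carry a Hox symbol with a cluster letter from a to d and a paralog number, and they are measured by 57 of the 45281 probes (39 of 30869 gene symbols). They lie in 4 clusters, with 11 Hoxa genes on chromosome 6, 10 Hoxb genes on chromosome 11, 9 Hoxc genes on chromosome 15 and 9 Hoxd genes on chromosome 2. Where a gene had several probes, the probe that was brightest on average over all arrays stood for it. All 39 symbols matched the RefSeq annotation.

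Within a cluster the genes stand in the order of their paralog numbers, and in the embryo the low-numbered genes are activated first and farthest forward, in the hindbrain, while the high-numbered genes are activated later and towards the tail. The forebrain and midbrain, where dopaminergic neurons arise, are formed without Hox expression. Retinoic acid and the caudal (Cdx) transcription factors are known activators of the clusters, Polycomb proteins keep them silent in pluripotent cells, and Pbx and Meis proteins bind DNA together with Hox proteins. Mesodermal and skin-derived cells keep a Hox code as well, so that Hox transcripts are not particular to neural cells.

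RNA came from murine ESD3 embryonic stem (ES) cells, a line of strain 129s2/SvPas, which all carried an shRNA vector. The sample labels describe the vector as retroviral. The methods of the study call it lentiviral and also speak of retroviral delivery. WT control cells expressed an shRNA against luciferase and HPRT-knockdown cells an shRNA against hypoxanthine guanine phosphoribosyltransferase (HPRT), a purine salvage enzyme, and both were sampled as undifferentiated ES cells grown on mouse embryo fibroblast feeders, as spherical neural masses (SNM) and at the final neuronal stage of dopaminergic differentiation. Each of the 6 conditions was measured on 3 Illumina MouseWG-6 v2 arrays. RNA of replicate cultures was pooled by condition before hybridisation. The SDs, standard errors and p-values therefore cover the error of repeated array measurements of pooled RNA and not the spread between cultures. Signals are on the log2 scale after background correction and quantile normalization, with an offset of 16 added before the logarithm, so that changes of dim probes are understated. A probe counts as detected on an array at a detection p-value under 0.05. A gene was tested in a comparison when every array of 1 or both of the conditions compared detected it, and called at an adjusted p-value under 0.05 (limma, Benjamini-Hochberg over all probes tested) and a change of at least 1.5-fold.

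For orientation, the promoters of 3 nearby genes of the Hoxa cluster are shown, because these genes were called higher together in HPRT-knockdown cells at the neuronal stage (values given with that comparison). Hoxa6, which lies between Hoxa5 and Hoxa7, was detected on no array of that stage. The RefSeq table (GRCm38.p6) holds 24 promoters for 22 of the 39 genes, each running from 250 bases before to 50 bases after a transcription start. Capitals mark matches on either strand to TTTATG, a sequence bound by Cdx proteins, to AGGTCA, the half-site of retinoic acid receptors, and to CCAAT. The 3 sequences are all on the minus strand, at chr6:52204538-52204837 for Hoxa5, chr6:52218524-52218823 for Hoxa7 and chr6:52227321-52227620 for Hoxa9.
Hoxa5: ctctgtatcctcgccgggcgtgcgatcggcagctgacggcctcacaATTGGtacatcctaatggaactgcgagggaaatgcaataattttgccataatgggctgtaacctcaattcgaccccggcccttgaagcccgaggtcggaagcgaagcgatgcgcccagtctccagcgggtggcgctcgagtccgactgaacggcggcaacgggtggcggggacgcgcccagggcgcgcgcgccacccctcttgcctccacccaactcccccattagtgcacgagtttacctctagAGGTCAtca
Hoxa7: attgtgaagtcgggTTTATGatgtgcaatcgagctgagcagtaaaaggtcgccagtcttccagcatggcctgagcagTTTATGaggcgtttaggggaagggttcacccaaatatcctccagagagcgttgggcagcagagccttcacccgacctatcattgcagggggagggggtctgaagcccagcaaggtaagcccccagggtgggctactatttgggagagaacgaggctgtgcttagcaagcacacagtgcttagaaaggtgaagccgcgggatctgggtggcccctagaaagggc
Hoxa9: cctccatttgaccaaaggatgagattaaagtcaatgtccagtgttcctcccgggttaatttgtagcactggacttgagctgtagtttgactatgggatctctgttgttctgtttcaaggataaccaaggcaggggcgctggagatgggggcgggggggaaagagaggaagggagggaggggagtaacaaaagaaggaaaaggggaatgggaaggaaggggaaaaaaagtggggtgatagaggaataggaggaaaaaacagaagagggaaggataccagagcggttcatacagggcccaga
The Hoxa7 window held TTTATG at 2 places, the Hoxa5 window held 1 AGGTCA and 1 CCAAT (read here from the opposite strand, as ATTGG), and the Hoxa9 window held none of the 3 motifs. TTTATG was present in 5 of the 24 Hox promoters and in 11.9% of all 32851 promoters of the table, AGGTCA in 7 of 24 and 16.3%, and CCAAT in 15 of 24 and 37.4%. Hox promoters held a median of 14.5 CpG dinucleotides against 7 over all promoters, but the 3 windows differed, with 29 in Hoxa5, 9 in Hoxa7 and 4 in Hoxa9. A match of letters is a description of the sequence and not a binding site.

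The brightest of 3 HPRT probes (listed as Hprt1) followed the labels. Its log2 signal lay between 12.00 and 12.07 on control arrays and between 7.75 and 8.14 on knockdown arrays of ES cells. For SNM these ranges were 11.13 to 11.23 and 9.34 to 9.50, and for neuronal-stage cells 11.03 to 11.08 and 6.56 to 6.64. The log2 difference of HPRT was -4.09 for ES cells, -1.76 for SNM and -4.45 for neuronal-stage cells, so the reduction was smallest for SNM. Comparisons of the knockdown effect between stages were not adjusted for this. Each array detected between 18827 and 22202 probes. The labelled cell types were checked against marker lists, whose levels are given as the summed normalized signal of the listed genes after the offset was taken off. At the neuronal stage the sum of 5 neuron markers was between 5587 and 5930 on control and between 1027 and 1164 on knockdown arrays. Tubb3 was detected on no knockdown array of that stage, and Snap25 on no array of either cell type of that stage. Of 4 tested neuron markers, 2 were called lower in knockdown cells and 0 higher. The neuronal-stage sum of 14 skeletal muscle and somite markers was between 55519 and 56049 on control and between 180 and 265 on knockdown arrays. Ckm, Myf5, Myf6, Myod1 and Myog were detected on no knockdown array of that stage. Pax3 and Pax7 were detected on no array of either cell type at that stage. The sum of 8 oligodendrocyte markers was between 3105 and 3289 on control and between 63779 and 66863 on knockdown arrays of that stage. The neuronal-stage pools thus differed in markers of muscle and of glia, and in bulk RNA fewer cells of a type and less RNA per cell cannot be told apart.

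More Hox genes were detected at each later stage in both cell types. On all 3 arrays of a condition, 14 of the 39 genes were detected in control and 10 in HPRT-knockdown ES cells, 15 and 18 in SNM, and 19 and 22 in neuronal-stage cells. As a share, this was 35.9% and 25.6% for ES cells, 38.5% and 46.2% for SNM, and 48.7% and 56.4% for neuronal-stage cells, while the share of all probes detected in the same way stayed between 38.6% and 44.4%. In all, 23 genes reached detection on every array of 1 or more conditions. The detected genes of control ES cells were of mixed position, since they included Hoxa2 and Hoxb2 of the hindbrain but also Hoxa13 and Hoxc13 of the tail and limb end of the clusters. The other 2 Hoxa13 probes were detected on no ES array, so the detection of Hoxa13 rests on a single probe.

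By paralog number, 5 of 8 anterior genes (paralogs 1 to 3), 10 of 15 central genes (4 to 8) and 8 of 16 posterior genes (9 to 13) did so. Between control ES cells and the neuronal stage, the number of central genes went from 6 to 10 in control cells and from 3 to 10 in knockdown cells. The number of posterior genes was 5 and then 4 in control cells, and 5 and then 7 in knockdown cells. Of the Hoxb cluster, 3 genes were detected in control ES cells, 2 in control SNM and 6 in control neuronal-stage cells, and the 6 form an uninterrupted series from Hoxb2 to Hoxb7. The same Hoxb genes were detected in knockdown neuronal-stage cells.

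Of the 23 genes, 7, among them Hoxa7, Hoxa13, Hoxb2, Hoxb7, Hoxc9 and Hoxd8, were detected on all 3 arrays of all 6 conditions. By contrast, 16 genes never reached all 3 arrays of a condition, with log2 signals between 4.19 and 5.5. Of these, Hoxa10, Hoxb8, Hoxb13, Hoxc5, Hoxc11 and Hoxd12 were detected on no array, and Hoxa3, Hoxa6, Hoxc8, Hoxc12 and Hoxd1 on 1 array each. Hoxd13 was detected on 3 arrays, Hoxb1 on 4, Hoxb9 on 5, Hoxc4 on 8 and Hoxd11 on 11. These genes had no level to compare, and no difference was detectable for them on these arrays.

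**Figure D1:**
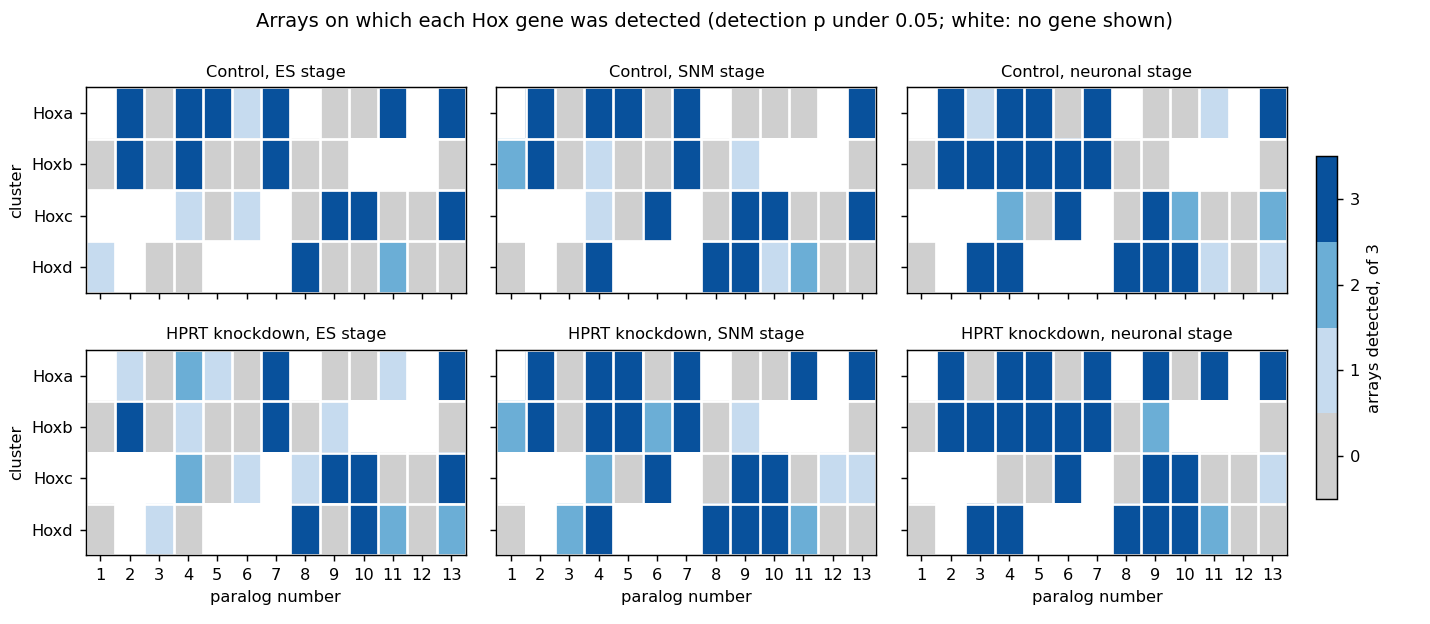
Number of arrays, of 3, on which Hox genes were detected, by cluster (rows) and paralog number (columns), for control (upper) and HPRT-knockdown cells (lower) at the ES, SNM and neuronal stages. Grey is no array, the darkest blue is all 3 arrays, and white marks places where no gene is shown. The numbers of central genes at all 3 arrays go from 6 to 10 in control and from 3 to 10 in knockdown cells between the ES and neuronal stages.

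The first comparison asks whether HPRT knockdown changed Hox expression in undifferentiated ES cells. Of 15 genes tested, 2 were called lower in knockdown cells (Hoxa2 and Hoxa5) and 1 higher (Hoxd10), against 1.68% called of all 18411 probes tested, 0.516% higher and 1.17% lower. The median difference of the 15 genes was -0.36 on the log2 scale, and 0.01 over all probes tested. Each of the 3 called genes was detected on all 3 arrays in only 1 of the cell types, through which it entered the test.

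Hoxa5, which acts at the level of the neck and the brachial spinal cord, had log2 signals of 5.65, 6.21 and 5.88 on control arrays and 4.98, 5.47 and 4.56 on knockdown arrays. Every control array lay above every knockdown array, and Hoxa5 was detected on 1 of the 3 knockdown arrays. The log2 difference was -0.91 (standard error 0.17, limma adjusted p = 0.00339). Hoxa2, a hindbrain and branchial arch gene, had signals of 5.81, 5.28 and 5.20 on control arrays and 4.58, 5.00 and 4.91 on knockdown arrays, of which 1 detected it. Its difference was -0.60 (standard error 0.15, limma adjusted p = 0.0152), just past 1.5-fold. A second Hoxa2 probe was likewise detected on all 3 control arrays, with a mean of 5.18, and on no knockdown array, with a mean of 4.68. Its difference of -0.5 fell short of 1.5-fold and was not called. Hoxa2 was no longer called when the probes of a gene were averaged.

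Hoxd10, a gene of the lumbar spinal cord, was the one that rose. It was detected on no control ES array, with signals of 4.74, 4.75 and 4.53, and on all 3 knockdown arrays, with 5.63, 5.16 and 5.16. The measured difference was 0.64 (standard error 0.11, limma adjusted p = 0.00202), and against the detection limit of the control arrays the rise was at least 1.36-fold. Quantile normalization without background correction and scaling to the 75th percentile each left 0 genes called in this comparison. Without control replicate 1 or knockdown replicate 1 Hoxa2 was no longer called, and without control replicate 3 or knockdown replicate 1 Hoxd10 was not. Hoxb7 and Hoxc9 also differed at an adjusted p-value under the threshold but by less than 1.5-fold (log2 differences of -0.36 and -0.43), but a second Hoxb7 probe differed by -0.01 (limma adjusted p = 0.985). Hoxa7 had a difference of -0.61, past 1.5-fold, with an adjusted p-value of 0.136 (limma). Hoxa4, Hoxa11, Hoxa13, Hoxb2, Hoxb4, Hoxc10, Hoxc13 and Hoxd8 had differences between -0.44 and 0.15, with adjusted p-values above the threshold. Of 12 fibroblast and mesenchyme markers, which the feeder cells would carry, 6 were detected on all 3 control and 4 on all 3 knockdown ES arrays, with summed signals between 727 and 776 and between 692 and 802. Col6a3 of that list was called lower in knockdown ES cells, by at least 1.52-fold. The part of the feeder cells in the Hox signals was not tested.

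**Figure D2:**
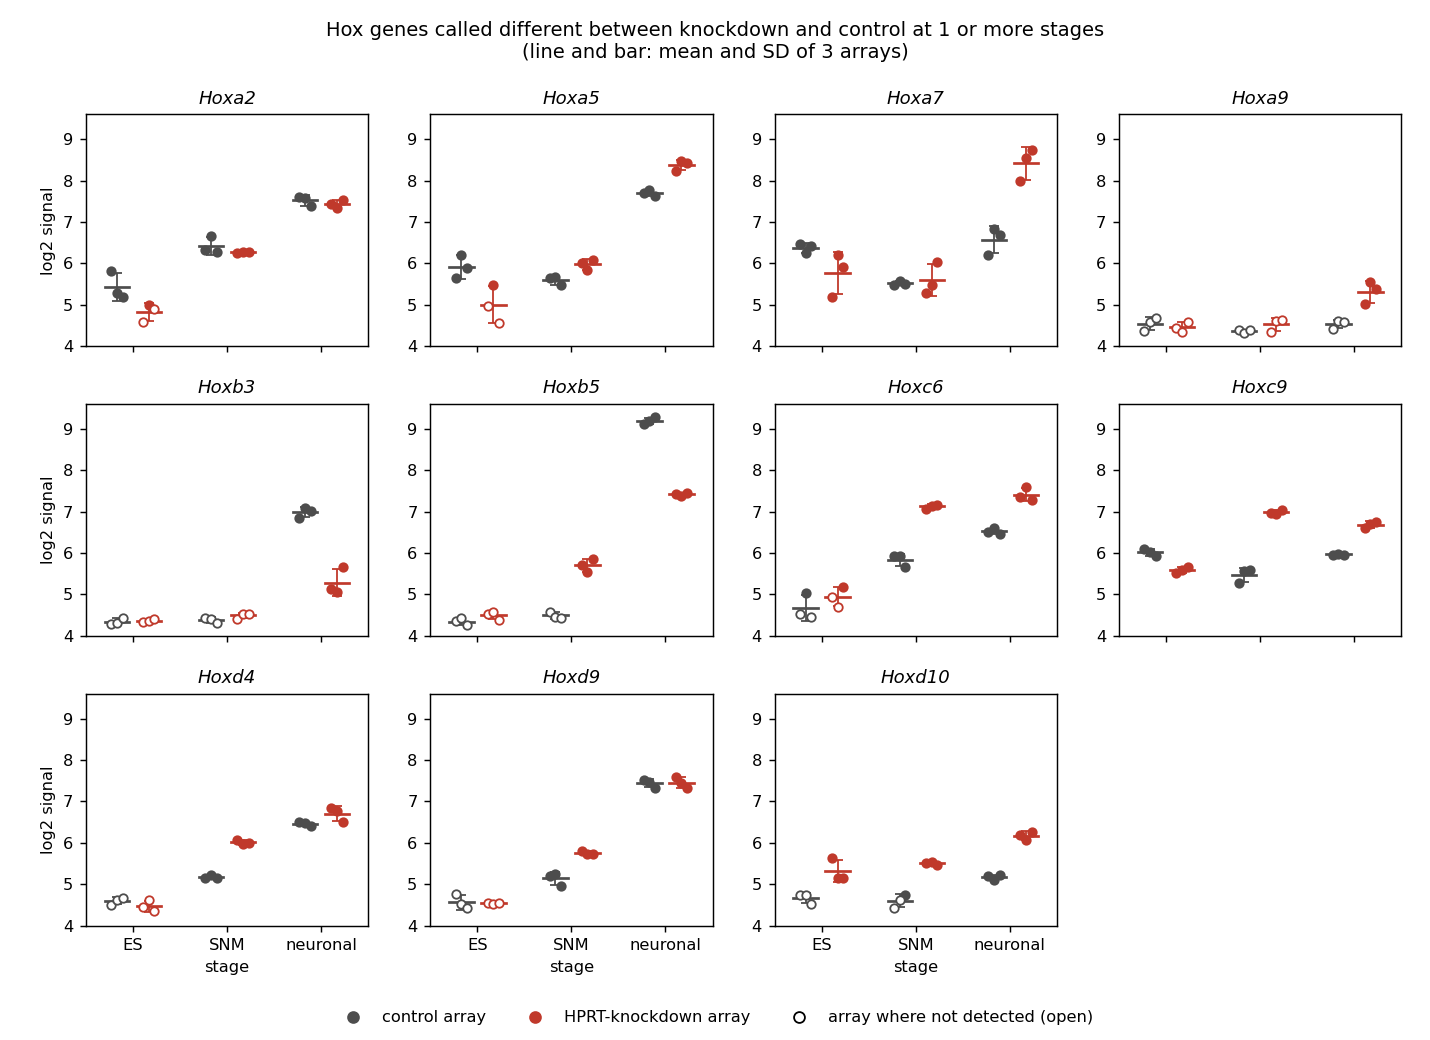
Log2 signal on every array of 11 Hox genes called different between HPRT-knockdown (red) and control cells (grey) at 1 or more stages; lines and bars give the mean and SD of 3 arrays, and open points are arrays on which the gene was not detected. Hoxb5 was higher in knockdown cells at the SNM stage and lower at the neuronal stage, while Hoxc6, Hoxc9 and Hoxd10 were higher at both.

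At the SNM stage, 6 of 19 tested Hox genes were called higher in HPRT-knockdown cells, Hoxc9, Hoxc6, Hoxb5, Hoxd10, Hoxd4 and Hoxd9, and 0 were called lower (limma, with 11 of the 19 at an unadjusted p-value under 0.05 in either direction). The methods' t-test likewise called 6 higher and 0 lower. Of all 20765 probes tested, 11% were called higher, 8.9% lower and 19.9% in either direction. The median difference was 0.37 over the 19 genes and -0.04 over all probes tested. None of the 6 was a Hoxa gene and none had a paralog number below 4. Of the 6, Hoxc9, Hoxc6, Hoxd4 and Hoxd9 were detected on all 3 arrays of both cell types, and Hoxb5 and Hoxd10 entered the test through the knockdown arrays.

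Hoxc9, which specifies the thoracic spinal cord, rose most. Its log2 signals were 5.28, 5.56 and 5.58 on control arrays and 6.97, 6.94 and 7.05 on knockdown arrays, without overlap. The difference was 1.51 (standard error 0.07, limma adjusted p = 1.6e-10), a fold change of 2.86. Hoxc6, a brachial-level gene, had signals of 5.93, 5.92 and 5.66 against 7.07, 7.15 and 7.16, a difference of 1.29 (standard error 0.14, limma adjusted p = 1.38e-06). Both Hoxc genes were therefore more than 2-fold higher in knockdown SNM.

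Hoxb5, a gene of the neck and vagal levels, was detected on none of the control SNM arrays (4.58, 4.46 and 4.44) and on all 3 knockdown arrays (5.71, 5.55 and 5.86). The difference was 1.21 (standard error 0.08, limma adjusted p = 3.6e-09), which is at least 1.92-fold against the detection limit. Hoxd10 was detected on 1 control array, with signals of 4.43, 4.63 and 4.74, and on every knockdown array, with 5.52, 5.54 and 5.46. The knockdown arrays again lay above all control arrays, by 0.91 (standard error 0.11, limma adjusted p = 5.89e-06).

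Hoxd4, a gene of the hindbrain and neck border, was detected on all 6 arrays, with signals of 5.15, 5.22 and 5.15 in control and 6.07, 5.96 and 6.0 in knockdown SNM. The difference was 0.84 (standard error 0.08, limma adjusted p = 4.42e-07). Hoxd9 rose by 0.61 on the log2 scale (1.52-fold) and its second probe by 0.98. Under quantile normalization without background correction 2 genes remained called at the SNM stage, and under 75th percentile scaling 3. Hoxd9 was no longer called without control replicate 3 or without knockdown replicate 1.

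The 13 tested genes that were not called included all 7 Hoxa genes tested. Hoxb7 and Hoxa11 were each higher by 0.54 with an adjusted p-value under the threshold, also short of 1.5-fold. Hoxc13, tested through the control arrays, had a difference of -0.33 (limma adjusted p = 0.0472). Hoxb2, a hindbrain gene, differed by 0.01 with a 95% interval from -0.27 to 0.28. Hoxa2, Hoxa4, Hoxa5, Hoxa7, Hoxa13, Hoxb4, Hoxc10 and Hoxd8 had differences between -0.24 and 0.38, with adjusted p-values above the threshold.

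Whether the knockdown effect itself differed between the ES and SNM stages was tested as an interaction. It was called higher at the SNM stage for 8 of 19 Hox genes, against 21.3% of all 22125 probes called in either direction, 11.7% higher and 9.61% lower. The 8 were Hoxc9, Hoxa5, Hoxb5, Hoxc6, Hoxa11, Hoxd4, Hoxb7 and Hoxd9, with differences of the log2 effect from 0.63 to 1.94. For Hoxc9 the effect went from -0.43 in ES cells to 1.51 in SNM. Hoxb5, Hoxd4 and Hoxd9 were detected on no ES array of either cell type, and Hoxc6 on 1 ES array of each. Their ES effects have little or no level behind them, so for these genes the interaction mostly restates the SNM difference. The call of Hoxd9 was lost without control ES replicate 1 or control SNM replicate 3, and quantile normalization without background correction left 3 genes called and 75th percentile scaling 4.

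**Figure D3:**
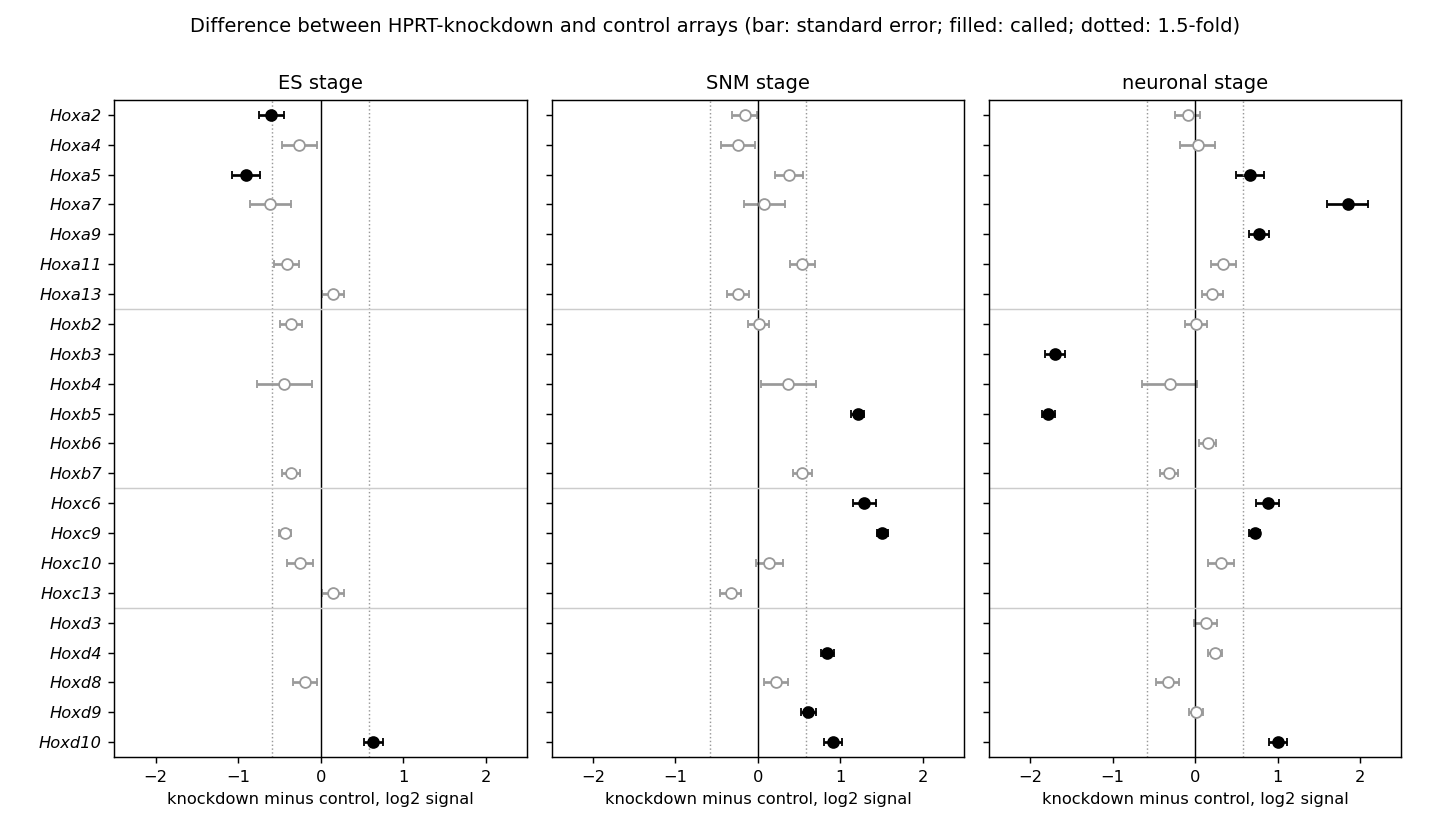
Difference in log2 signal between HPRT-knockdown and control cells, with its standard error, for Hox genes tested at the ES, SNM and neuronal stages, in order of cluster and paralog number. Filled points are called genes and dotted lines mark 1.5-fold. At the SNM stage the called genes, from 0.61 to 1.51, lie in the Hoxb, Hoxc and Hoxd clusters. At the neuronal stage Hoxa5, Hoxa7, Hoxa9, Hoxc6, Hoxc9 and Hoxd10 are called higher and Hoxb3 and Hoxb5 lower.

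At the neuronal stage, 7 of 22 tested Hox genes were called higher in HPRT-knockdown cells and 2 lower, against 27.4% of all 20893 probes called in either direction, 13.9% higher and 13.5% lower. The genes that rose included Hoxa7, Hoxd10, Hoxc6, Hoxa9, Hoxc9 and Hoxa5, and those that fell were Hoxb5 and Hoxb3. By cluster, 4 of 8 tested Hoxa genes, 2 of 3 Hoxc genes and 1 of 5 Hoxd genes were called higher, and 2 of 6 Hoxb genes were called lower; a difference between clusters was not tested. The median difference was 0.5 over the 8 Hoxa genes, -0.31 over the 6 Hoxb genes, 0.72 over the 3 Hoxc genes, 0.13 over the 5 Hoxd genes and 0.01 over all probes tested. All genes tested here were detected on all 3 knockdown arrays, and 19 of the 22 on all 3 control arrays.

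Hoxa7, a gene of the thoracic level, had log2 signals of 6.20, 6.84 and 6.69 on control arrays and 7.98, 8.54 and 8.75 on knockdown arrays. The difference was 1.85 (standard error 0.25, limma adjusted p = 8.98e-06), a fold change of 3.60, with SDs of 0.33 in control and 0.40 in knockdown cells (n = 3 arrays each).

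Hoxa9, a posterior gene also known from blood progenitors, was detected on no control array (4.42, 4.61 and 4.58) and on all 3 knockdown arrays (5.01, 5.55 and 5.37). The difference was 0.77 (standard error 0.12, limma adjusted p = 4.09e-05), at least 1.52-fold against the detection limit. The knockdown neuronal-stage arrays were the only ones of the 18 on which this probe was detected, and of its other 2 probes, 1 was detected on 2 of the 3 knockdown arrays of this stage and the other on no array. Hoxa5, whose promoter is shown with those of Hoxa7 and Hoxa9, rose by 0.67 (1.59-fold).

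Hoxd10 had signals of 5.19, 5.11 and 5.22 in control and 6.18, 6.06 and 6.27 in knockdown cells, a difference of 1.00 (standard error 0.11, limma adjusted p = 1.32e-06). Hoxc6 had signals of 6.51, 6.60 and 6.47 against 7.35, 7.59 and 7.29, a difference of 0.88 (standard error 0.14, limma adjusted p = 5.14e-05). Neither gene's arrays overlapped between the cell types. Hoxc9 rose by 0.72 (1.65-fold). These 3 genes were higher in knockdown cells of both later stages, which makes 3 of the 6 genes (50%) called higher at the SNM stage and 3 of the 7 (42.9%) called higher at the neuronal stage. Over all probes the shares were 30.5% and 23.9%.

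Hoxb5 fell by 1.78 on the log2 scale, 3.42-fold (standard error 0.08, limma adjusted p = 1.15e-11). Its log2 signals were 9.12, 9.18 and 9.28 on control arrays and 7.43, 7.38 and 7.45 on knockdown arrays. The direction is opposite to that at the SNM stage, where Hoxb5 was detected in knockdown cells and not in control cells. Hoxb3, a gene of the caudal hindbrain, had signals of 6.86, 7.10 and 7.01 in control and 5.14, 5.06 and 5.66 in knockdown cells, and fell by 1.70 (standard error 0.12, limma adjusted p = 2.67e-09). The 3 further Hoxb3 probes were detected on 1, 1 and 2 of the control arrays of this stage and on no knockdown array, with differences of -0.21, -0.14 and -0.42.

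None of the other tested Hoxb genes was called at this stage. Hoxb4, which lies between them in paralog number, had signals of 7.19, 8.21 and 8.30 in control and 6.95, 7.67 and 8.18 in knockdown cells. These arrays overlapped, and the difference of -0.31 had a 95% interval from -1.01 to 0.40. Hoxb7 had a difference of -0.32 without overlap of the arrays (limma adjusted p = 0.0172), which is less than 1.5-fold, and its second probe differed by -0.07. Hoxb6 and Hoxb2 differed by 0.15 and 0.01, with 95% intervals from -0.07 to 0.38 and from -0.27 to 0.28.

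Of the remaining genes, Hoxd4 was higher by 0.24 (limma adjusted p = 0.0191), short of 1.5-fold, and Hoxd9, which had differed at the SNM stage, by 0.01 with a 95% interval from -0.19 to 0.21. Hoxa2, Hoxa4, Hoxa11, Hoxa13, Hoxc10, Hoxd3 and Hoxd8 had differences between -0.33 and 0.34, none with an adjusted p-value under the threshold. Quantile normalization without background correction left 3 genes called higher at this stage and 75th percentile scaling also 3, and both kept 2 called lower. Under both, Hoxa5, Hoxa9, Hoxc9 and Hoxd10 were no longer called.

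Between the SNM and neuronal stages the knockdown effect changed, by the interaction test, for 9 of 23 Hox genes, against 28.6% of all 22160 probes, 13.7% higher and 14.8% lower. It was higher at the neuronal stage for genes including Hoxa7 and Hoxa9, by 1.77 and 0.61, and lower for Hoxb5, Hoxb3, Hoxb7, Hoxc9, Hoxd9 and Hoxd4, with log2 differences of -2.99, -1.82, -0.86, -0.79, -0.60 and -0.59. Hoxb3 was detected on no SNM array of either cell type, and Hoxa9 on the knockdown neuronal-stage arrays alone. For these genes the interaction mostly restates the neuronal-stage difference. Single arrays decided 3 of the interaction calls. Without knockdown SNM replicate 1 or without control neuronal replicate 1, Hoxa9, Hoxd9 and Hoxd4 were all lost. Hoxa9 was also lost without knockdown neuronal replicate 2, Hoxd9 without control SNM replicate 3, control neuronal replicate 2 or knockdown neuronal replicate 3, and Hoxd4 without control SNM replicate 1 or 3 or knockdown neuronal replicate 3. Quantile normalization and 75th percentile scaling without background correction each left 2 genes called higher and 2 lower.

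Marker genes of other cell types moved with these differences. Of 12 tested skeletal muscle and somite markers, 11 were called lower in knockdown neuronal-stage cells, where Tnnc2, a muscle troponin, fell by 8.56 on the log2 scale. All 12 fibroblast and mesenchyme markers were detected in both cell types of that stage, with summed signals between 24778 and 28144 in control and between 12771 and 16073 in knockdown cells, and 10 of the 12 were called lower. Among them, Lum fell by 2.60. All 8 oligodendrocyte markers were called higher, Opalin by 7.14, and 4 of 5 astrocyte markers, S100b by 4.49. Of 2 tested neural crest markers, Sox10, which oligodendrocytes also express, rose by 5.85 and Snai2 fell by 1.51.

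Hoxb3 and Hoxb5 were lower and Hoxa7 higher in knockdown cells, which also had less muscle and mesenchyme signal and more glial signal. The part of these signals in the Hox differences was not tested. Of 5 tested motor neuron markers 3 were called higher in knockdown cells, Isl2 by 1.35, and 2 were called lower, of which Isl1 fell by 2.81. The motor neuron gene Mnx1 was detected on no array of either cell type at this stage. Of 4 tested lateral plate and limb mesoderm markers 1, Tbx4, fell by 1.78, and of 3 tested endoderm markers 2 were higher, Sox17 by 1.07. Of 7 pluripotency markers 6 were called lower, of which Tdgf1 fell by 2.39, and 1 higher, Sox2 by 1.13.

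At the SNM stage, where Hoxc9, Hoxc6, Hoxb5, Hoxd4, Hoxd9 and Hoxd10 were higher in knockdown cells, 5 of 10 tested muscle and somite markers were called higher (Myh8 by 1.99) and 3 lower (Meox2 fell by 2.07). Their summed signal was between 1608 and 1618 in control and between 2086 and 2342 in knockdown SNM. Of the 12 fibroblast and mesenchyme markers 4 were called higher, Fn1 by 1.00, and the sums were between 8499 and 9108 and between 10297 and 11986. Of 7 tested oligodendrocyte markers 5 were lower, of which Opalin fell by 2.35, and of 5 astrocyte markers 3 were higher, Aldh1l1 by 1.90. Of 3 tested lateral plate and limb mesoderm markers 2 were higher, Tbx4 by at least 2.88-fold, and of 4 tested endoderm markers 3 were higher, Ttr by 2.87. Of 2 tested motor neuron markers Phox2a fell by 1.15, of 2 neural crest markers Sox10 fell by 1.75, the 4 tested neuron markers had a median difference of -0.18, and of 7 pluripotency markers 4 were lower, of which Esrrb fell by 0.99. The part of these cell types in the Hox differences was not tested.

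Changes with differentiation were compared within each cell type. Between the ES and SNM stages of control cells, 4 of 17 tested genes were called higher and 4 lower, against 49.1% of all 20703 probes called, 23.7% higher and 25.4% lower. The share of tested Hox genes called, 47.1%, was near that of all probes. Of the called genes, Hoxc6 was detected on all 3 arrays at the SNM stage alone and Hoxa11 at the ES stage alone. Hoxb2 rose by 1.23, Hoxc6 by 1.16, Hoxa2 by 0.99 and Hoxd8 by 0.84. Among the genes called lower, Hoxc13, known from hair and nail formation, fell by 1.30, Hoxa7 fell by 0.86 and Hoxa11 fell by 0.65. Hoxd4 and Hoxd9 were higher by 0.57 and 0.58, just short of 1.5-fold. Hoxa11 was no longer called without control ES replicate 2. Quantile normalization without background correction left 1 gene called higher and 2 lower, and 75th percentile scaling the same numbers.

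In HPRT-knockdown cells, 10 of 19 tested genes were called higher at the SNM stage and 2 lower, against 57.3% of all 21467 probes, 26.4% higher and 30.9% lower. The share called was 63.2%, near that of all probes, and 6 of the 10 higher genes (Hoxa2, Hoxa5, Hoxb5, Hoxc6, Hoxd4 and Hoxd9) entered the test through the SNM arrays and Hoxc13 through the ES arrays. Hoxc6 rose by 2.19, Hoxb2 by 1.60, Hoxa2 by 1.43, Hoxc9 by 1.39, Hoxd8 by 1.24, Hoxa5 by 0.97 and Hoxb7 by 0.68, which was no longer called when the probes of a gene were averaged. Hoxd4, Hoxd9 and Hoxb5 were detected on no knockdown ES array and rose by at least 2.11-fold, 1.76-fold and 1.71-fold. Hoxc13 fell by 1.78. The 4 genes called higher in control cells were all among the 10 of knockdown cells (40% of them), and both genes called lower in knockdown cells were among the 4 of control cells (50% of them). Over all probes, 84.1% of the higher calls of control cells were shared with knockdown cells, which is 73% of those of knockdown cells, and 83.7% and 66.3% of the lower calls. These comparisons share no array. Quantile normalization without background correction left 6 genes called higher in knockdown cells and 75th percentile scaling 3, and both left 2 lower.

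From the SNM to the neuronal stage the direction was upward in both cell types. In control cells 15 of 21 tested genes were called higher and 0 lower (limma), against 14.3% of all 20697 probes called higher, 15.1% lower and 29.4% in either direction, and 18 of the 21 had an unadjusted p-value under 0.05. In knockdown cells 15 of 22 were called higher and 0 lower, against 13.8% higher, 14.8% lower and 28.6% in either direction of all 21125 probes, with 19 at an unadjusted p-value under 0.05. The median change of the tested Hox genes was 1.06 for control and 0.8 for knockdown, and -0.07 and -0.02 over all probes tested. Of the genes that rose, 10 in control and 13 in knockdown cells were detected on all 3 arrays at both stages, and the others entered through the neuronal stage. The same 12 genes were called higher in both cell types, 80% of each set (over all probes, the shared calls were 29.7% of those of control and 30.2% of those of knockdown cells, and no test of the difference was made): Hoxa2, Hoxa4, Hoxa5, Hoxa7, Hoxb2, Hoxb3, Hoxb4, Hoxb5, Hoxb7, Hoxd4, Hoxd8 and Hoxd9.

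In control cells the Hoxb cluster rose furthest, with all 6 tested genes called, of which Hoxb3, Hoxb4, Hoxb5 and Hoxb6 entered through the neuronal stage. Hoxb5 was detected on none of the control SNM arrays and rose by at least 21.6-fold, and Hoxb3 by at least 4.68-fold. Hoxb4 rose by 3.09 on the log2 scale, from signals of 4.52, 4.63 and 5.29 to 7.19, 8.21 and 8.30. Hoxd8 rose by 2.78, from 6.31, 6.19 and 6.11 to 8.92, 9.03 and 8.99, Hoxd9 by 2.30 and Hoxa5 by 2.12. All 10 tested genes of paralogs 4 to 8 were called higher in control cells, but 1 of 6 of paralogs 9 to 13, which was Hoxd9. Hoxc9 and Hoxd10 rose by 0.50 and 0.57 with adjusted p-values under the threshold, short of 1.5-fold. The rise of Hoxd3, by at least 1.28-fold, was no longer called without control neuronal replicate 1.

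In knockdown cells Hoxa7 rose by 2.82, Hoxb4 by 2.42, Hoxa5 by 2.41 and Hoxd8 by 2.24. Hoxa9 and Hoxd10 were called higher in knockdown but not in control cells, and Hoxb6, Hoxc6 and Hoxd3 in control but not in knockdown cells, yet the difference between the cell types passed the interaction test for Hoxa9 and not for Hoxd10, Hoxb6, Hoxc6 or Hoxd3. Of the Hoxc genes in knockdown cells, Hoxc9 changed by -0.30, short of 1.5-fold, and Hoxc6, already called higher in knockdown SNM, by 0.29. In control cells Hoxa13, Hoxc10 and Hoxc13 changed by -0.16, -0.19 and -0.15, and in knockdown cells Hoxa11, Hoxa13 and Hoxc10 by -0.03, 0.30 and -0.01, none with an adjusted p-value under the threshold.

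**Figure D4:**
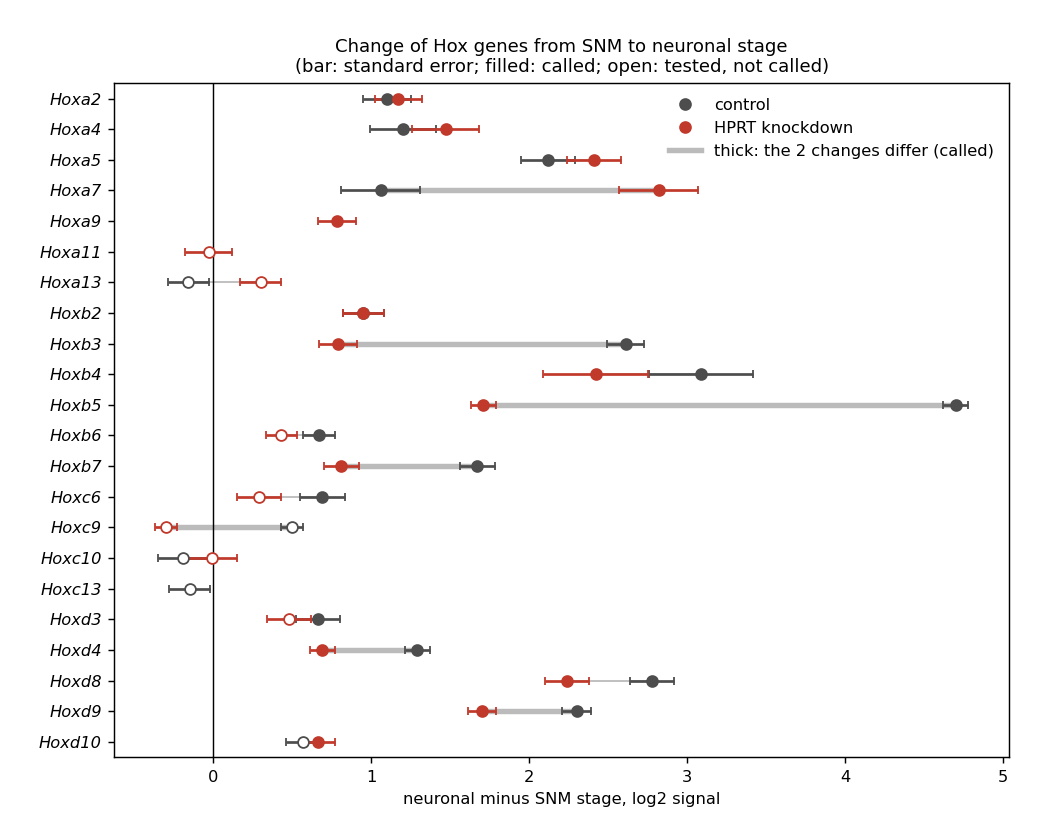
Change in log2 signal from the SNM to the neuronal stage, with its standard error, in control (grey) and HPRT-knockdown cells (red) for Hox genes tested in either. Thick lines join changes that differed by the interaction test; Hoxb5 rose by a measured 4.70 in control and 1.71 in knockdown cells, whereas Hoxa7 rose by 1.06 and 2.82.

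Over the same interval, muscle and somite markers moved in opposite directions in the cell types, with 11 of 13 called higher and 1 lower in control cells and 7 of 8 called lower in knockdown cells. Fibroblast and mesenchyme markers were called higher for 8 of 12 in control cells, and for 4 with 4 lower in knockdown cells. Oligodendrocyte markers were called lower for 7 of 7 in control and higher for 7 of 8 in knockdown cells. The part of these cell types in the rise of the Hox genes was not tested.

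Genes that act with or upstream of the Hox clusters were examined from lists of the pathway. Of all probes tested between the cell types, 11% were called higher and 8.9% lower in knockdown SNM. At the neuronal stage these shares were 13.9% and 13.5%. The list counts were not tested against them. At the ES stage the called genes among these lists and the marker lists were Col6a3 and the muscle actin Acta1, which fell by 0.61. Among 9 TALE homeodomain partners, 1 was lower in knockdown SNM (Pbx3 fell by 0.96) and 3 were lower at the neuronal stage, of which Meis2 fell by 1.45. In differentiation from ES to SNM, 7 of the 9 were called higher in control and 5 in knockdown cells, and 1 was lower in each. Of all probes, 23.7% were higher and 25.4% lower in control cells, and 26.4% and 30.9% in knockdown cells.

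Among 13 caudal homeobox, tail bud and axial signal genes, T (Brachyury), which marks nascent mesoderm and the tail bud, rose by 3.42 in knockdown SNM and by 4.24 in knockdown neuronal-stage cells. Of the 9 tested at the SNM stage 2 were called higher, the other being Cdx2 (by 1.31, named after its value was seen), and 2 lower, with Fgf17 falling by 1.93. Of the 5 tested at the neuronal stage, 1 was higher and 2 lower. Cdx4 was tested in none of these comparisons.

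Among 17 retinoic acid genes on the array, 2 of 13 tested were higher in knockdown SNM (Aldh1a1, a retinoic acid synthesis enzyme, by 1.22) and 5 lower (Crabp2, a cellular binding protein, fell by 2.38). At the neuronal stage 2 of 15 were higher (Aldh1a1, by 1.12) and 4 lower (Aldh1a3 fell by 1.97). The receptor gene Rarb, itself a target of retinoic acid, rose by 2.57 in control and by 2.56 in knockdown cells between SNM and neuronal-stage samples. The list was mixed over that interval, and Crabp2 fell by 2.00 and 1.36. In control cells 4 of 14 tested were higher and 3 lower, against 14.3% and 15.1% of all probes. In knockdown cells 5 of 13 were higher and 2 lower, against 13.8% and 14.8%.

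Among 8 hindbrain segmentation genes, 3 of 6 tested were lower in knockdown cells at the SNM stage (Gbx2 fell by 2.28) and 3 of 6 at the neuronal stage (Irx3 fell by 1.15). Among 17 forebrain, midbrain and isthmus transcription factors, 3 of 9 tested were higher in knockdown SNM (Nkx2-1 by 6.01) and 4 lower (En2 fell by 2.80). Of 7 tested at the neuronal stage, 2 were higher (Nkx2-1 by 2.76) and 3 lower (Pax8 by at least 2.78-fold).

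Among 25 Polycomb, Trithorax and related chromatin genes, 1 of 22 tested was higher (Cbx6, by 0.71) and 4 lower (Cbx7 fell by 1.66) in knockdown SNM, and 3 of 21 lower at the neuronal stage (Phc1 fell by 0.81). The neuronal-stage count is near the 13.5% of all probes called lower. Among 13 genes that lie next to the Hox clusters, 1 of 8 was lower at the SNM stage (Cbx5, beside the Hoxc cluster, fell by 1.11). At the neuronal stage 2 of 9 were higher, of which Skap2, beside the Hoxa cluster, rose by 1.28, and 3 were lower, of which Evx1, at the other end of that cluster and also in the caudal list, fell by 1.26.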

How the data were processed

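The authors deposited a non-normalized table of Illumina probe intensity values with a detection p-value per probe and array, and a sample probe profile from which the gene symbols were taken by probe ID. RNA of replicate cultures was pooled per condition before hybridisation, per the methods of the study. The 18 arrays were grouped and numbered by their titles; the descriptions number the arrays differently. Another 72 per-sample columns were not used.

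The intensity values were background-corrected with normexp fitted through the detection p-values (neqc, offset 16), quantile-normalized and put on the log2 scale with limma 3.58.1 in R 4.3.3. One model over the 6 conditions gave each comparison, with Benjamini-Hochberg adjustment over all probes tested, and was tested on simulated data. Probes detected (p under 0.05) on all 3 arrays of at least 1 compared condition were tested. A probe undetected on all 3 arrays of 1 condition has only a bound there: the other condition's mean was set against the mean of, per array, the higher of the probe's own signal and the lowest detected signal. Each array detected between 18827 and 22202 probes, replicate arrays correlated at 0.989 to 0.996, and 3 arrays per condition limit the precision.

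The Hox genes and all gene lists were chosen with earlier results of these data known. Values per array are given for HPRT, for genes called at the ES stage and for the 5 largest called rises and falls at the SNM and neuronal stages; from each other list at most the largest called rise and fall per stage are named, unless stated. Results of 1 Hox gene and of 1 gene of another list are not reported here by name, value or figure; both stay in the counts and medians. The lists are TALE partners, caudal and axial genes, retinoic acid genes, hindbrain segmentation genes, forebrain and midbrain factors, Polycomb and Trithorax genes, genes flanking the clusters, and markers of fibroblasts, muscle, lateral mesoderm, motor neurons, neurons, oligodendrocytes, astrocytes, neural crest, pluripotent cells and endoderm.

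Arrays with the same title number had correlated deviations between cell types at the SNM stage (0.49, 0.11 and 0.49) and, for some numbers, at the neuronal stage (0.61, 0.09 and 0.32), but not at the ES stage (-0.09, 0.03 and 0.10). Between the SNM and neuronal stages the correlations were 0.60, -0.12 and 0.34 in control and 0.52, 0.14 and 0.51 in knockdown cells, and no label ties a number to a shared batch. Alternatives were quantile normalization or 75th percentile scaling without background correction, no detection filter, a 2-fold threshold, the mean over a gene's probes, a replicate block, the methods' t-test and leaving out each array. The slide could not be used as a block, because arrays were not paired with slides in the sources used here.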

Additional observations from a re-analysis of the deposited data

Results flagged for a closer look

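The effect of HPRT knockdown differed between stages, by a test of the difference itself (limma interaction term), for 16 gene and stage pairs described here. Some of these genes were undetected in both cell types at the earlier stage of a pair. They were Hoxb5, Hoxd4 and Hoxd9 at the ES stage, and Hoxb3 and Hoxa9 at the SNM stage. For those pairs the test mostly restates the difference at the later stage. From the ES to the SNM stage the log2 effect became higher for Hoxc9 by 1.94, Hoxa5 by 1.29, Hoxb5 by 1.07, Hoxc6 by 1.03, Hoxa11 by 0.96, Hoxd4 by 0.96, Hoxb7 by 0.90 and Hoxd9 by 0.63. Leaving aside genes undetected at the ES stage, the sign changed for Hoxa5, from -0.91 to 0.38, although the second value did not pass the test. It changed for Hoxc9, from -0.43 to 1.51. Hoxb7 and Hoxa11 also went from lower to higher, with effects short of 1.5-fold at both stages. A second Hoxb7 probe differed by -0.01 in ES cells.

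From the SNM to the neuronal stage the effect became higher for Hoxa7 by 1.77 and for Hoxa9 by 0.61. It changed by -2.99 for Hoxb5, -1.82 for Hoxb3, -0.86 for Hoxb7, -0.79 for Hoxc9, -0.60 for Hoxd9 and -0.59 for Hoxd4. Hoxb5 was called in opposite directions at these stages, with 1.21 and -1.78. Both sets of differences share the SNM arrays.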

How the results depend on the processing

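No called Hox value changed sign under any alternative run. Quantile normalization without background correction kept 47 of 85 called values and lost 38, and 75th percentile scaling without background correction kept 46 and lost 39; both leave the background in the signal, and the 2-fold threshold kept 49 and lost 36. Without the detection filter and with the replicate block all 85 were kept, and with the mean over a gene's probes 83. The methods' t-test, at its unadjusted threshold, kept 67 of 68 values and after Benjamini-Hochberg 65 of 68; it was not run on the interactions. Leaving out each array in turn kept 589 of 612. Under 75th percentile scaling the median change of all probes from ES to SNM was -0.17 in control and -0.21 in knockdown cells, against -0.08 and -0.11.

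At the ES stage the 1 higher and 2 lower genes in knockdown cells became 0 and 0 under quantile normalization, under 75th percentile scaling, at 2-fold and by the adjusted t-test. The lower genes became 1 by the mean over probes and 1 by the unadjusted t-test. Over all probes, 310 were called at this stage, 57 under quantile normalization, 56 under 75th percentile scaling and 78 by the adjusted t-test. The 6 genes higher in knockdown SNM became 2 under quantile normalization, 3 under 75th percentile scaling and 3 at 2-fold, and the 7 higher at the neuronal stage became 3, 3 and 2. From ES to SNM in control cells, 4 higher and 4 lower became 1 and 2 under quantile normalization, 1 and 2 under 75th percentile scaling and 2 and 2 at 2-fold; in knockdown cells 10 higher became 6 under quantile normalization and 3 under 75th percentile scaling. From SNM to the neuronal stage in knockdown cells 15 higher became 9 at 2-fold. The interaction from ES to SNM, higher for 8, became 3, 4 and 4 under quantile normalization, 75th percentile scaling and 2-fold, and that from SNM to neuronal, lower for 6, became 2 under each. The cause of these changes was not tested.

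Leaving out each array gave 0 to 1 higher and 1 to 2 lower at the ES stage, 5 to 8 higher and 0 lower at the SNM stage, and 7 higher and 2 lower at the neuronal stage. From ES to SNM it gave 4 to 6 higher and 3 to 5 lower in control and 10 higher and 2 to 3 lower in knockdown cells, and from SNM to neuronal 14 to 16 and 15 higher. For the interactions it gave 7 to 9 higher and 0 to 1 lower, then 2 to 3 higher and 4 to 6 lower.

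With the replicate block, which pairs arrays by title number, 3 genes instead of 2 were lower at the ES stage and 9 instead of 8 higher in the first interaction, and no other count changed. The slide block was not run, because arrays were not paired with slides in the sources used here. Signals near background limit the 16 genes never detected on all 3 arrays of a condition.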
